A study of Mus musculus with 18 samples.

Results

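The genes described here encode the proteasome: its catalytic core, the regulatory cap, the activators and inhibitor that bind the core, and the chaperones that build it. They were taken as every gene on the array whose single annotated symbol runs from Psma to Psmg followed by a number, leaving out Psmb11 and pseudogenes. That gave 48 of the 18194 genes with a single symbol, and 47 of the 48 were among the 14020 genes bright enough to test. Each gene was read from its brightest probe set over the 18 arrays. Psmc3ip and Psme3ip1 carry a matching name but encode partner proteins, not subunits, and are reported apart.

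The proteasome degrades proteins tagged with ubiquitin. The core is a barrel of alpha and beta rings, and the beta subunits Psmb5, Psmb6 and Psmb7 carry its proteolytic sites. Interferon-gamma and the immune lineage favour a second set, Psmb8, Psmb9 and Psmb10, which take the places of Psmb5, Psmb6 and Psmb7 to form the immunoproteasome. Its altered cleavage supplies peptides that the transporter Tap1-Tap2 carries to MHC class I molecules. A base of ATPases, named Psmc, unfolds the substrate, and non-ATPase subunits, named Psmd, recognise and strip the ubiquitin.

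RNA came from thymocytes or tumour masses of 18 independent mice, 1 array each. The 5 control mice are wild type in the sample labels and LckCre in the study's design text, which is Cre driven by the Lck promoter. The 5 mice called here before transformation carried CD4Cre and ctnnbex3, an allele in which Cre, driven by Cd4 regulatory sequences, removes the part of beta-catenin that marks it for degradation. The 8 lymphomas came from mice of the same CD4Cre-ctnnbex3 genotype. Ages are not stated, tumour masses and thymocyte suspensions differ in the cells they hold, and in bulk RNA fewer cells of a type and less RNA per cell cannot be told apart.

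The median signal of an array lay between 125 and 166 intensity units. It was lowest in lymphomas 2 and 1 (125.3 and 128.5), which also had the highest averages over the tested proteasome genes (10.71 and 10.60, log2). Axin2, a transcriptional target of beta-catenin that checks the genotype labels, was 2.75-fold higher before transformation (limma adjusted p = 2.85e-05) and 5.04-fold higher in lymphomas (adjusted p = 4.96e-08) than in controls. The position of the Ctnnb1 probe set in the transcript was not examined, and its signal was not used as a check of the removed exon. The summed signal of 11 thymocyte markers was 55850 to 61180 in controls, 44240 to 67260 before transformation and 18610 to 32020 in lymphomas, where all 11 were lower than in controls and Ptcra was at the floor on every array. That of 10 macrophage and dendritic cell markers was 3352 to 5460 in controls, 1954 to 5271 before transformation and 7075 to 22990 in lymphomas, and that of 7 B cell markers was 4812 to 6405, 1240 to 5139 and 1679 to 14660. The brightest genes weigh most in such sums. Marker counts in this paragraph are of genes with a limma adjusted p under 0.05. By that measure 17.4% of all genes were higher and 22.7% lower in lymphomas than in controls. The shares were 16% and 18.3% between lymphomas and mice before transformation, and 4.36% and 6.18% before transformation against controls. Of the 10 macrophage and dendritic cell markers, 6 were higher and 2 lower in lymphomas than in controls. Against the mice before transformation 5 were higher and 1 lower. Of the 7 B cell markers 0 differed between lymphomas and controls. Of 8 granulocyte markers 5 were lower than in controls both before transformation and in lymphomas. Before transformation 5 of the 11 thymocyte markers were lower and 1 higher than in controls, and in lymphomas 4 of 10 tested thymic epithelium markers were lower and 4 of 7 tested stroma and endothelium markers higher. The array of lymphoma 4 gave both Xist (1110 units) and the Y-linked Eif2s3y (313 units). Controls 1 and 2 and 6 lymphomas gave female signals, and controls 3 to 5, every mouse before transformation and lymphoma 3 gave male signals. Between lymphomas and mice before transformation, sex and tumour therefore can hardly be told apart. In each group the mice numbered 1 and 2 had the highest average over the tested proteasome genes: 10.32 to 10.33 against 10.09 to 10.25 (log2) in the other controls, 10.21 to 10.41 against 9.97 to 10.20 before transformation, and 10.60 to 10.71 against 10.14 to 10.36 in lymphomas.

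Before transformation, 3 of the 47 tested proteasome genes differed from controls and all 3 were lower: Psmb8, Psmb9 and Psme1. A gene is counted here where limma's adjusted p, taken over all 14020 genes, is under 0.05. In this comparison 10.5% of all genes passed, 4.36% as higher and 6.18% as lower, and the median log2 difference was -0.04 over the proteasome genes and -0.02 over all genes. Between lymphomas and mice before transformation, 11 of 47 were higher and 0 were lower, or 23.4%, when 34.4% of all genes passed, 16% as higher and 18.3% as lower. Between lymphomas and controls, 14 were higher and 5 lower, or 40.4%, when 40.1% of all genes passed, 17.4% as higher and 22.7% as lower. The first 2 shares are below that of all genes and the third is close to it, but this depends on the setting, as given at the end of the paragraph. Their direction was less even: 37 of 47 log2 differences were above 0 against the mice before transformation and 38 of 47 against controls, where 47.3% and 47.7% of all genes were. The median difference was 0.23 and 0.21 for the proteasome genes, and -0.03 in both comparisons over all genes. Counted by groups of mice that do not overlap, 2 members were higher and 2 lower before transformation than in controls, against 4.32% and 6.24% of all genes (10.6% together). Lymphomas did not overlap the mice before transformation for 5 members, all higher, against 6.67% of all genes higher and 8.84% lower (15.5% together), nor the controls for 10 higher and 3 lower members, against 8.21% and 12% (20.2% together). The comparisons share groups of mice and are not independent. Quantile normalization gave 25 higher and 0 lower against the mice before transformation and 31 higher and 2 lower against controls, where 38.5% and 43.8% of all genes passed, with the median of all genes moved from -0.03 to 0.06 and 0.08. Over all genes it turned 2434 higher and 3184 lower against controls into 3588 and 2555, and 2244 and 2572 against the mice before transformation into 3176 and 2218. With the 2 sets of mouse numbers (1 and 2, 3 and up) as a block, 28 passed against the mice before transformation and 30 against controls, when 45.9% and 45.5% of all genes did. Against controls 35 of 47 passed among mice numbered 1 and 2 alone, when 28.3% of all genes did. Among mice numbered 3 and up 16 of 47 passed, 13 higher and 3 lower, when 41.7% of all genes did.

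**Figure D1:**
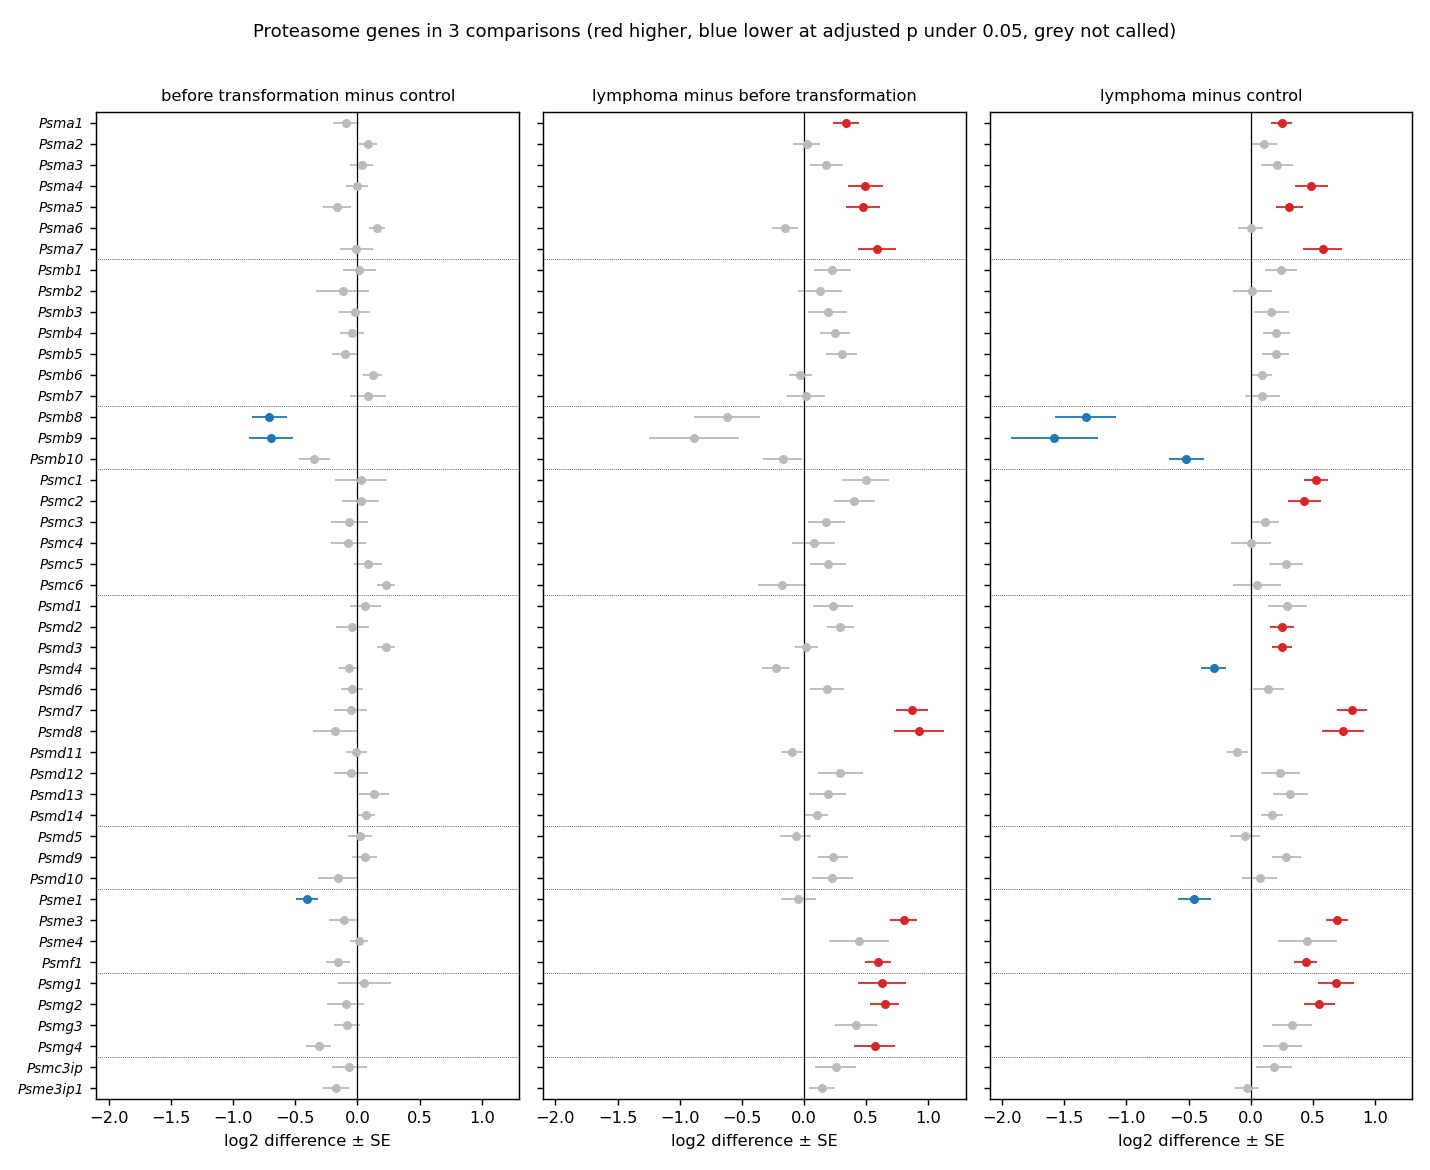
Log2 difference with its standard error (x axis) for each of the 47 tested proteasome genes (y axis, by role: alpha ring, constitutive beta ring, inducible beta subunits, base ATPases, non-ATPase cap, cap chaperones, activators and inhibitor, core chaperones, matched by name only) in the 3 comparisons. Red and blue mark genes higher and lower at an adjusted p under 0.05, and grey the rest. In the comparison with controls 38 of 47 genes lie to the right of 0, 14 of them red, and the 5 blue genes are the inducible beta subunits, Psme1 and Psmd4.

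The inducible subunits Psmb8, Psmb9 and Psmb10 were the members with the lowest log2 differences between lymphomas and controls. The sequences upstream of Psmb8 and between Psmb9 and Tap1 are shown because these neighbours on chromosome 17 were lower together, and those of Psmb5 and Psmb6 because they are the constitutive partners. They are from RefSeq (GRCm38.p6), 5′ to 3′, and each ends at the base before the gene's start, for the shared segment that of Tap1. Psmb8 is at chr17:34197945-34198194 on the plus strand, and its capitals mark the letters TTCNNNGAA of a gamma-activated site. Psmb9 and Tap1 are divergent and their starts are separated by the segment chr17:34187331-34187555, given on the plus strand, in which capitals mark a CCAAT box. Psmb5 is at chr14:54617996-54618245 on the minus strand and Psmb6 at chr11:70525107-70525356 on the plus strand, and their capitals mark the letters TGACNNNGC of an antioxidant response element.
Psmb8: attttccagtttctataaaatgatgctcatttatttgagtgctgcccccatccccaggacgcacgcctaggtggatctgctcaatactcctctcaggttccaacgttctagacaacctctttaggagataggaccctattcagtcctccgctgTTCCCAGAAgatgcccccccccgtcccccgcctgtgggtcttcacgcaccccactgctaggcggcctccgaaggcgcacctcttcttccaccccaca
Psmb9-Tap1: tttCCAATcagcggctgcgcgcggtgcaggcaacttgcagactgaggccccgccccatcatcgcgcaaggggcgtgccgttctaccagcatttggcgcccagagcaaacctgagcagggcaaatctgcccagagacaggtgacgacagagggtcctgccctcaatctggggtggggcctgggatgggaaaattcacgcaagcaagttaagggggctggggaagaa
Psmb5: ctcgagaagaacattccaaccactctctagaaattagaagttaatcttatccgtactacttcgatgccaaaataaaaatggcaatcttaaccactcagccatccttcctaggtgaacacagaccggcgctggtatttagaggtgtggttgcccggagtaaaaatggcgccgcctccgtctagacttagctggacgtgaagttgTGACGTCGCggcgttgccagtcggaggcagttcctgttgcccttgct
Psmb6: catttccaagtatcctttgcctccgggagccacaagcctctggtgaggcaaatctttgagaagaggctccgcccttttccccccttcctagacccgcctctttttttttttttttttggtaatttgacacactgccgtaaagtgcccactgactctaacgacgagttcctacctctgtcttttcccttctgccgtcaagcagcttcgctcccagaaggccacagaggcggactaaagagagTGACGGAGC

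Promoter entries were matched for 40 of the 48 genes (43 entries), and 250 bases before each start were searched on both strands. TTCNNNGAA was found in 2 of the 43 (Psmb8 and Psmg1) and in 7.02% of all 32851 promoters. TGACNNNGC was found in 5 (Psmb5, Psmb6, Psmc6, Psmd12 and Psmd9) and in 10.2% of all. The interferon-stimulated response element was found in 3 (Psmb3, Psmd4 and Psmd9) and in 2.98% of all. CCAAT was found in 15 and in 33.8% of all, and CACGTG, the E-box that Myc and its relatives bind, in 5 (Psma4, Psmb10, Psmd9, Psme3 and Psme3ip1) and in 6.02% of all. These matches describe letters and do not show that a factor was bound.

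Psmb8, the inducible partner of Psmb5, gave signals of 2983, 2827, 2506, 2578 and 2639 in controls 1 to 5. The mice before transformation gave 1622, 1833, 2316, 1349 and 1329. The lymphomas ran from 589 (lymphoma 6) through a median of 1169 to 1836 (lymphoma 3). Every mouse of both CD4Cre-ctnnbex3 groups was below every control. The log2 difference from controls was -0.71 (SE 0.14, adjusted p = 0.00614 by limma) before transformation and -1.33 (SE 0.24, adjusted p = 6.05e-04) in lymphomas, or 2.51-fold. Between lymphomas and mice before transformation it was -0.62 (adjusted p = 0.0816) and the groups overlapped.

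Psmb9, the inducible partner of Psmb6, gave 1108, 1086, 790.4, 905 and 997 in controls and 529, 644, 944, 480.4 and 503 before transformation. The lymphomas ran from 138 (lymphoma 1) through a median of 327 to 652 (lymphoma 3), all below the lowest control. Mouse 3 before transformation stood among the controls, and the other 4 mice of that group were below them. The log2 difference from controls was -0.69 (SE 0.18, limma adjusted p = 0.027) before transformation and -1.58 (SE 0.35, adjusted p = 0.0023) in lymphomas, or 2.99-fold. The signal spread 1.40-fold from lowest to highest control and 4.73-fold over the lymphomas, the widest of the 47 genes in that group.

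Psmb10, the inducible partner of Psmb7, gave 1156, 1232, 918, 1158 and 1058 in controls and 749, 927, 1123, 828 and 749 before transformation. The lymphomas ran from 589 (lymphoma 1) through 787 to 983 (lymphoma 3), and 6 of 8 were below every control. The log2 difference from controls was -0.35 (SE 0.13, limma adjusted p = 0.121) before transformation and -0.52 (SE 0.14, adjusted p = 0.00912) in lymphomas. Against the mice before transformation the lymphomas differed by -0.17 (adjusted p = 0.41) for Psmb10 and by -0.89 (adjusted p = 0.0727) for Psmb9. None of the 3 inducible genes thus passed there as fitted here. With all 3 groups in 1 fit Psmb8 (-0.62, limma adjusted p = 0.0403) and Psmb9 (-0.89, adjusted p = 0.036) did pass in that comparison. Over 26 alternatives Psmb8 passed in 2, Psmb9 in 4 and Psmb10 in 0.

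The lower Psmb8 and Psmb9 in lymphomas than in controls passed under every alternative run, with log2 differences of -1.65 to -0.995 for Psmb8 and -2.30 to -1.28 for Psmb9. Within mice numbered 1 and 2 they were -1.57 and -2.30, and within mice numbered 3 and up -1.21 and -1.28. Psmb10 did not pass within mice numbered 3 and up (-0.39, adjusted p = 0.0916) or after quantile normalization (-0.39, adjusted p = 0.0516). The difference before transformation rests on fewer mice: within mice numbered 3 and up Psmb8, Psmb9 and Psme1 differed from controls by -0.68, -0.55 and -0.32 (adjusted p = 0.0861, 0.227 and 0.162). Among the mice with male signals they differed by -0.64, -0.57 and -0.36 (adjusted p = 0.0616, 0.183 and 0.104), and with all 3 groups in 1 fit the adjusted p was 0.137, 0.379 and 0.109. Psmb9 before transformation also failed to pass when control 1, 2 or 5 or mouse 1, 4 or 5 before transformation was left out (adjusted p up to 0.0737). Without mouse 3 before transformation, the highest of its group for Psmb8, Psmb9, Psmb10 and Psme1, the difference in Psmb10 was -0.44 (adjusted p = 0.0237) and 6 members passed in place of 3. The part of the marker levels given above in these differences was not tested.

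**Figure D2:**
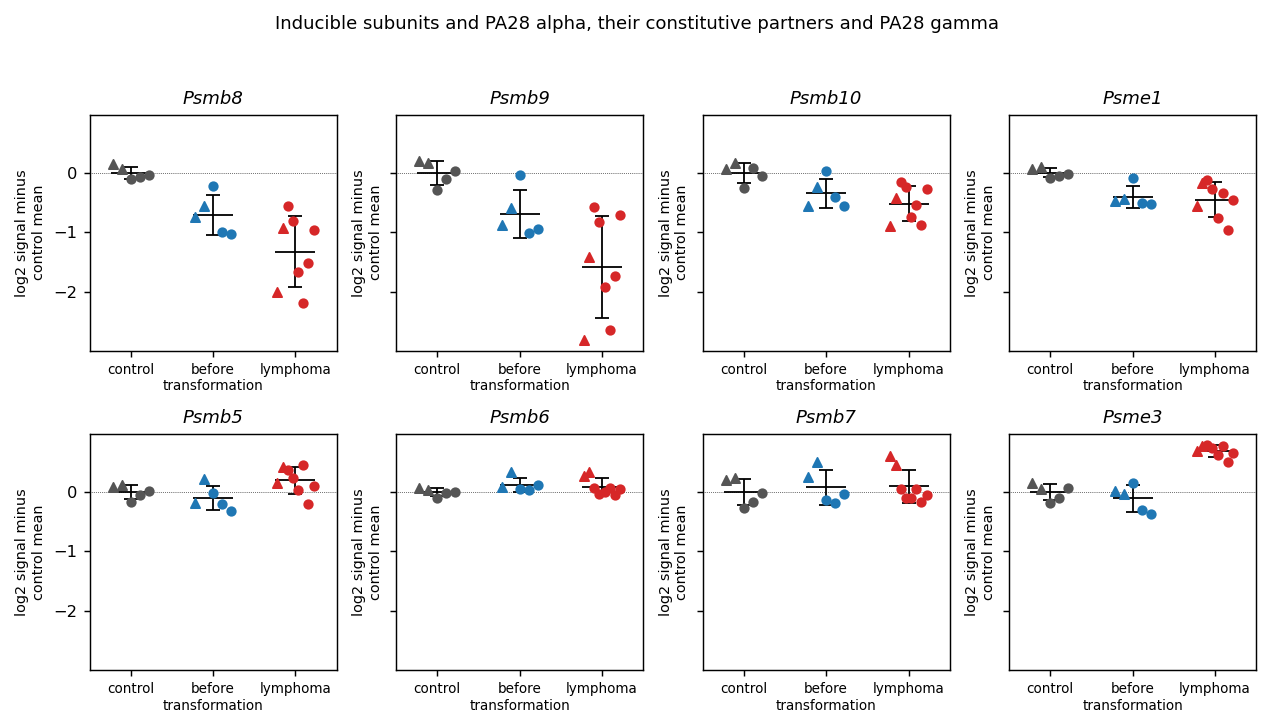
Log2 signal minus the control mean (y axis) in each mouse of the control, before transformation and lymphoma groups (x axis) for the inducible subunits, Psme1, the constitutive partners and Psme3. Triangles are mice numbered 1 and 2, circles the others, and bars the mean ± SD (n = 5, 5 and 8). Psmb8 and Psmb9 are lower in every lymphoma than in every control, Psmb5, Psmb6 and Psmb7 overlap between groups, and Psme3 is higher in every lymphoma.

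The constitutive beta ring is the set the inducible subunits replace, and 0 of its 7 genes passed in any of the 3 comparisons as fitted here, although Psmb5 and Psmb4 passed under some alternatives. Their log2 differences ran from -0.12 to 0.12 before transformation against control, from -0.03 to 0.30 between lymphomas and mice before transformation, and from 0.01 to 0.24 between lymphomas and controls. Psmb5, which carries the chymotrypsin-like site, gave 2039, 2107, 1717, 1876 and 1948 in controls, 1698, 2239.6, 1902, 1678 and 1557 before transformation, and 1683 to 2662 with a median of 2217 in lymphomas. The 3 groups overlapped, and Psmb5 differed by 0.30 (limma adjusted p = 0.0728) between lymphomas and mice before transformation. It passed there after quantile normalization (0.44, adjusted p = 0.0171) and with the 2 sets of mouse numbers as a block (0.33, adjusted p = 0.0383). Psmb4, a structural subunit, differed by 0.21 between lymphomas and controls and passed there with quantile normalization (0.38, adjusted p = 0.00392), with the same block (0.26, adjusted p = 0.00801) and within mice numbered 1 and 2 (0.40, adjusted p = 0.011). Its second bright probe set gave 0.48 (adjusted p = 8.68e-04) and the mean of both 0.34 (adjusted p = 0.00767). Psmb1, a structural subunit named after its values were seen, gave 0.24 with the chosen probe set and 0.95 and -0.13 with its 2 others.

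Setting each inducible subunit against its partner within the same array removes a scaling factor common to the whole array. It does not remove a difference that varies with intensity, and the pairs were not tested after quantile normalization. Relative to controls, the log2 difference Psmb8 minus Psmb5 changed by -0.61 before transformation and by -1.53 in lymphomas (exact permutation test, two-sided, adjusted p = 0.0143 and 0.0035 over 9 tests). For Psmb9 minus Psmb6 it was -0.82 and -1.67 (exact permutation test, adjusted p = 0.0238 and 0.0035). For Psmb10 minus Psmb7 it was -0.43 and -0.61 (exact permutation test, adjusted p = 0.0893 and 0.0035). In lymphomas every array was below every control array for all 3 pairs. Between lymphomas and mice before transformation only Psmb8 minus Psmb5 passed (-0.92, exact permutation test, adjusted p = 0.0035). It did not pass with the mean of all probe sets (-0.65, exact permutation, adjusted p = 0.0746), with the second brightest (-0.37, adjusted p = 0.309) or within mice numbered 3 and up (-0.88, adjusted p = 0.0536). The others were -0.86 (adjusted p = 0.0759) and -0.19 (adjusted p = 0.476) in the same exact test. The smallest p these group sizes allow is 0.00794 for 5 against 5 mice and 0.00155 for 8 against 5. Within mice numbered 3 and up the 3 pairs were -1.45, -1.34 and -0.49 between lymphomas and controls (exact permutation test, adjusted p = 0.0536 for each). There, as for Psmb8 minus Psmb5 against the mice before transformation, the lymphomas did not overlap the other group. The p before adjustment was therefore the smallest that these numbers of mice allow. Within mice numbered 1 and 2 the 3 pairs were -1.76, -2.55 and -1.09 between lymphomas and controls, where 2 against 2 mice cannot pass.

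**Figure D3:**
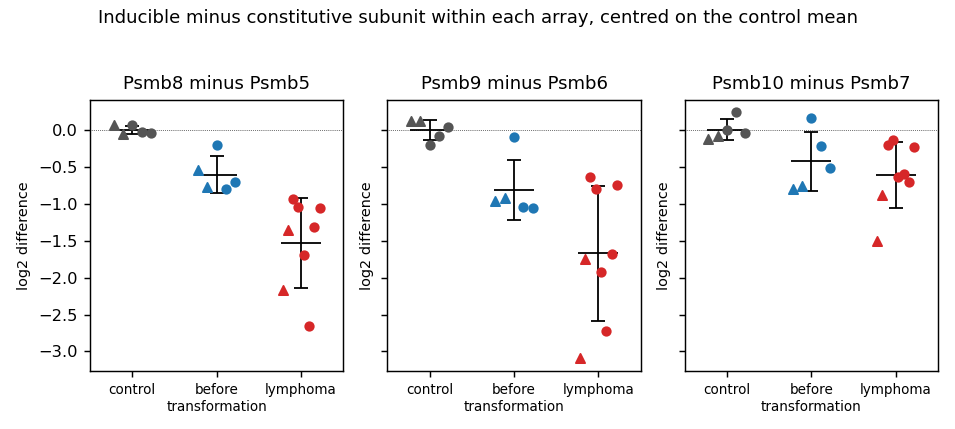
Log2 signal of the inducible minus the constitutive subunit within each array, centred on the control mean (y axis), for 3 pairs in each mouse of the 3 groups (x axis). Triangles are mice numbered 1 and 2, circles the others, and bars the mean ± SD. For Psmb8 minus Psmb5 every array before transformation and every lymphoma array is below the controls, and the lymphomas are below the mice before transformation.

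Among the activators and the inhibitor, Psme1 fell and Psme3 rose, while the direction of Psmf1 against controls differed between probe sets. Psme1, the alpha chain of the interferon-inducible PA28 activator, gave 2539, 2596, 2281, 2348 and 2406 in controls and 1751, 1788, 2283, 1711 and 1689 before transformation. The lymphomas ran from 1247 (lymphoma 7) through 1844 to 2250.2 (lymphoma 3), all below the lowest control by a narrow margin. The log2 difference from controls was -0.41 (SE 0.09, limma adjusted p = 0.0117) before transformation and -0.45 (SE 0.13, adjusted p = 0.0126) in lymphomas. The latter did not pass after quantile normalization (-0.30, adjusted p = 0.0888), after median centring (-0.37, adjusted p = 0.0998), or within mice numbered 1 and 2 (-0.44, adjusted p = 0.0742) or 3 and up (-0.43, adjusted p = 0.0676). The beta chain, Psme2, has 1 probe set on the array, which also maps to Psme2b, and is not reported.

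Psme3 encodes PA28 gamma, the nuclear activator that degrades some proteins without ubiquitin and is not part of the interferon response. It gave 816, 759, 646, 679 and 769.9 in controls and 741, 716, 815, 591 and 564 before transformation. The lymphomas ran from 1042 through 1198 to 1272, and every lymphoma was above every mouse of both other groups. Psme3 differed by 0.69 on the log2 scale from controls (SE 0.09, limma adjusted p = 2.51e-05) and 0.80 from mice before transformation (SE 0.11, adjusted p = 7.04e-05). It passed under every alternative run, at 0.46 to 0.83 against controls, and the second of its 2 bright probe sets gave 0.72.

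Psmf1, the inhibitor PI31 that binds the core, gave 362, 351, 383, 325 and 391 in controls, 349, 323, 359.9, 297 and 301 before transformation, and 443 to 576 with a median of 476 in lymphomas. Against controls the log2 difference of Psmf1 was 0.44 (SE 0.10, limma adjusted p = 0.00221), and it was 0.59 from mice before transformation (SE 0.10, adjusted p = 5.26e-04). Its 3 dimmer probe sets went the other way against controls, at -0.30, -0.17 and -0.25, so the direction holds for the brightest probe set only. The second brightest, at -0.30, passed as lower (limma adjusted p = 0.0234), and the mean of all its probe sets gave -0.069. Psme4, the large activator PA200, was chosen for mention after its values were seen: it gave 873 to 996 in controls and 685 to 2304 in lymphomas, with a log2 difference of 0.45 that did not pass (adjusted p = 0.142). Its other 2 bright probe sets gave 0.65 and 0.88, and a dimmer one -0.29.

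In the alpha ring, which gates entry to the core, Psma1, Psma4, Psma5 and Psma7 were higher in lymphomas in both comparisons and none of 7 tested genes differed before transformation. The share was 57.1% in both lymphoma comparisons, when 34.4% of all genes passed against the mice before transformation and 40.1% against controls. Psma4 gave 2298, 2299.7, 2082, 2178 and 2134 in controls, 1959, 2487, 2475, 2183 and 1914 before transformation, and 2491 to 4365 with a median of 2864 in lymphomas. Every lymphoma was above both other groups, with lymphomas 1 and 2 the highest. The log2 difference was 0.49 from controls (SE 0.13, limma adjusted p = 0.00775) and 0.49 from mice before transformation (SE 0.14, adjusted p = 0.015). Psma7 gave 995 to 1379.8 in controls, 971 to 1432 before transformation and 1256 to 2646 in lymphomas, and 7 of 8 lymphomas were above every mouse of the other groups. The log2 difference was 0.58 from controls (adjusted p = 0.00826) and 0.59 from mice before transformation (adjusted p = 0.00989), and a second bright probe set gave 0.68 against controls.

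Psma5 differed by 0.31 (limma adjusted p = 0.0336) from controls and 0.47 (adjusted p = 0.0137) from mice before transformation, and Psma1 by 0.25 (adjusted p = 0.0335) and 0.34 (adjusted p = 0.0196). Both were near the threshold against controls: Psma5 no longer passed when any 1 of the 5 controls was left out (adjusted p up to 0.0831), and Psma1 when control 3 or 4 or lymphoma 3, 4 or 5 was (up to 0.107). Against mice before transformation Psma1 did not pass without mouse 4 or 5 of that group (up to 0.0654). A dimmer second probe set of Psma1 gave -0.28 and -0.33. Psma8, a testis-specific alpha subunit, was at or near the floor of 53.5 units, with signals of 54 to 67, and was not tested.

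Of the 6 base ATPases, which thread the substrate into the core, Psmc1 and Psmc2 were higher in lymphomas than in controls, and 0 passed in the other comparisons. The share against controls was 33.3%, when 40.1% of all genes passed. Psmc1 gave 894, 839.7, 831, 748 and 836 in controls, 1153, 1381, 667, 648 and 628 before transformation, and 942 to 1429 with a median of 1202 in lymphomas. The lymphomas did not overlap the controls (log2 difference 0.53, SE 0.10, limma adjusted p = 7.46e-04). The mice before transformation split by number, with mice 1 and 2 among the lymphomas and mice 3 to 5 below every control. Against that group Psmc1 differed by 0.50 and did not pass (adjusted p = 0.0523), while within mice numbered 3 and up it differed by 0.83 (adjusted p = 4.48e-04). Psmc2 differed by 0.43 from controls (SE 0.13, adjusted p = 0.0176) and its second bright probe set gave 0.36. Psmc6 gave 1638 to 1821 in controls and 1971 to 2359 before transformation, without overlap (0.23, adjusted p = 0.0661), and spread 2.85-fold over the lymphomas.

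The non-ATPase cap holds the ubiquitin receptors and the deubiquitinase, and 4 of its 11 genes were higher and 1 lower in lymphomas than in controls. This share, 45.5%, is close to the 40.1% of all genes that passed. Psmd7, the inactive partner of the deubiquitinase Psmd14, gave 499.8, 462, 384, 364 and 449 in controls, 405, 526, 429, 362 and 361 before transformation, and 543 to 846 with a median of 766 in lymphomas. All 8 lymphomas were above both other groups, with lymphoma 7 the lowest. Psmd7 differed by 0.82 on the log2 scale from controls (SE 0.12, limma adjusted p = 1.08e-04) and 0.87 from mice before transformation (SE 0.13, adjusted p = 1.69e-04). Its other 2 probe sets were dim and gave -0.28 and 0.54 against controls.

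Psmd8, a structural subunit of the lid, gave 1658, 1536, 1229, 1322 and 1500.2 in controls, 1556, 1781, 1245, 859.8 and 1114 before transformation, and 1619.6 to 3859 with a median of 2317 in lymphomas. Of 8 lymphomas 7 were above every mouse of the other groups and lymphoma 7 was not. The log2 difference was 0.74 from controls (SE 0.17, limma adjusted p = 0.00267) and 0.93 from mice before transformation (SE 0.20, adjusted p = 0.00302). Psmd7 and Psmd8 were the 2 of 11 that passed in the latter comparison (18.2%, when 34.4% of all genes passed).

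Psmd2 and Psmd3 differed from controls by 0.25 each in lymphomas (limma adjusted p = 0.0478 and 0.0255). Psmd2, a scaffold of the base, no longer passed without control 3, 4 or 5 or lymphoma 1, 3, 4, 5, 6 or 8 (adjusted p up to 0.147), and within mice numbered 1 and 2 it differed by 0.03. Psmd3, a scaffold of the lid, no longer passed without control 1 or 5 (adjusted p up to 0.0553). It was already above every control before transformation, at 2052 to 2489 against 1901 to 2010.4 (log2 difference 0.23, adjusted p = 0.0576), and passed without mouse 2 of that group (adjusted p = 0.0193). Psmd4, a ubiquitin receptor, was the called member of the cap that was lower: 1855 to 2026 in controls, 1592 to 2062 before transformation and 1409.9 to 1972 in lymphomas (-0.30 from controls, adjusted p = 0.0281). Lymphomas 1 and 2 lay among the controls and within mice numbered 1 and 2 the difference was 0.01, its 2 other bright probe sets gave 0.05 and -0.12, and it did not pass without control 1, 2, 4 or 5 or lymphoma 4 or 8 (adjusted p up to 0.0621).

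The 3 chaperones that assemble the base, Psmd5, Psmd9 and Psmd10, passed in none of the comparisons as fitted here, with log2 differences from -0.05 to 0.29 between lymphomas and controls. Psmd9 did pass there with the 2 sets of mouse numbers as a block (0.32, limma adjusted p = 0.0178) and after quantile normalization (0.41, adjusted p = 0.0143). Its 2 dimmer probe sets went the other way against controls, at -0.54 and -0.18. The second brightest passed as lower in lymphomas than before transformation (-0.86, limma adjusted p = 0.0264), so the direction of Psmd9 differed between probe sets. Of the 4 chaperones that assemble the core, 3 were higher in lymphomas than before transformation and 2 than in controls (75% and 50%, when 34.4% and 40.1% of all genes passed). Psmg1 gave 832, 777, 593, 559 and 665 in controls, 878, 1126, 564, 493 and 627 before transformation, and 850.4 to 1485 in lymphomas (0.68 from controls, SE 0.14, limma adjusted p = 0.00163). Every lymphoma was above every control, while 3 of 8 were above every mouse before transformation. Against that group it differed by 0.63 (adjusted p = 0.0202), which did not pass without mouse 3, 4 or 5 of it (up to 0.0681).

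Psmg2, which pairs with Psmg1 to build the alpha ring, gave 779.5, 795, 576, 526 and 755 in controls, 534, 732, 748, 591 and 587 before transformation, and 875 to 1259.9 with a median of 982 in lymphomas. All lymphomas were above both other groups. The log2 difference was 0.55 from controls (SE 0.12, limma adjusted p = 0.0025) and 0.65 from mice before transformation (SE 0.12, adjusted p = 6.91e-04), and its 2 other bright probe sets gave 0.44 and 0.40 against controls. Psmg4 was lower before transformation (336 to 438) than in every control (447 to 514) without passing (-0.31, adjusted p = 0.0786), and was higher in lymphomas than in that group (0.57, adjusted p = 0.0151). Psmc3ip, a meiotic recombination partner, and Psme3ip1, a partner of PA28 gamma, passed in no comparison as fitted here. Psmc3ip passed between lymphomas and mice before transformation with the same block (0.33, limma adjusted p = 0.012), and between lymphomas and controls among mice numbered 1 and 2 alone (0.55, adjusted p = 0.0443).

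**Figure D4:**
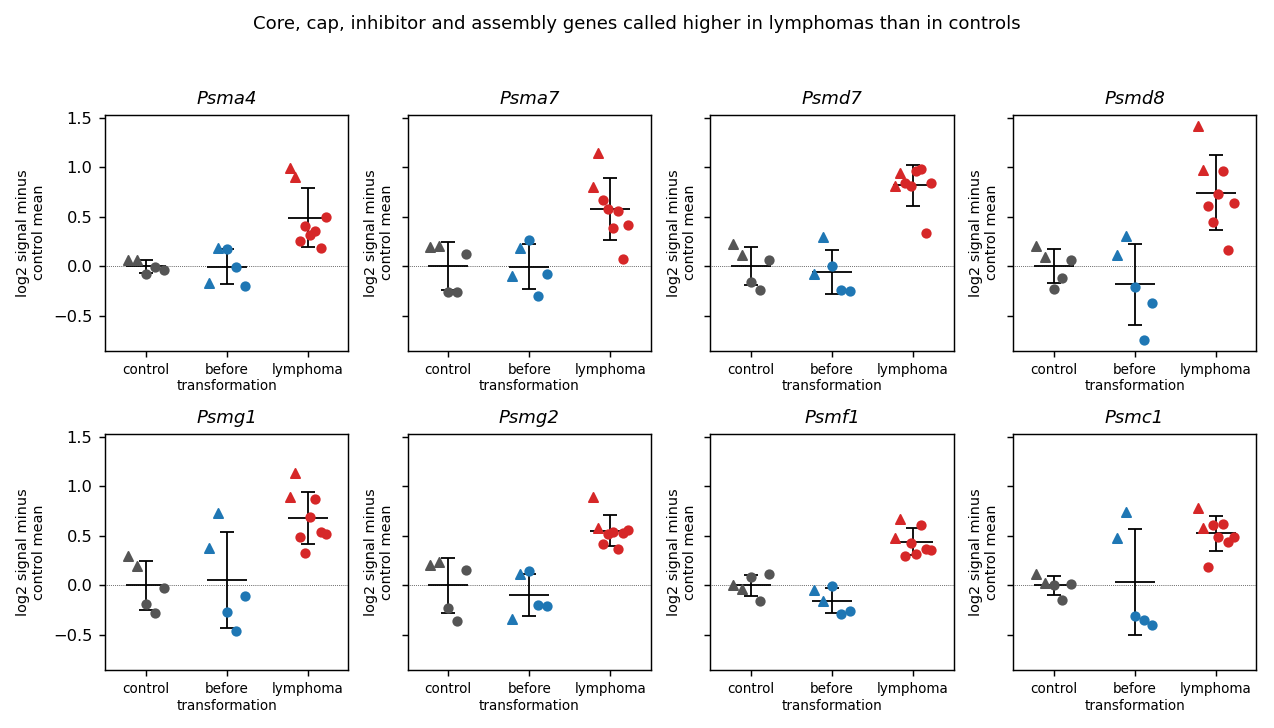
Log2 signal minus the control mean (y axis) in each mouse of the 3 groups (x axis) for 8 genes that were higher in lymphomas than in controls by their brightest probe sets. The dimmer probe sets of Psmf1 went the other way. Triangles are mice numbered 1 and 2, circles the others, and bars the mean ± SD (n = 5, 5 and 8). Lymphomas 1 or 2 are the highest in most panels, and for Psmc1 and Psmg1 mice 1 and 2 stand above the rest of their group before transformation too.

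Other probe sets of the same genes were a partial check. Beyond the chosen ones, 38 probe sets in 22 of the genes were above the filter, and 22 of the 38 had the sign of the chosen one between lymphomas and controls. In the other comparisons 24 (before transformation against control) and 23 (lymphomas against before transformation) of the 38 did. The same agreement was not computed over all genes, and the directions counted above rest on the brightest probe sets. Among the fewer mice with female signals Psma4, Psma7, Psmd7, Psmd8, Psmg1 and Psmg2 did not pass between lymphomas and controls. Their log2 differences there were 0.36 to 0.67 (limma adjusted p = 0.056 to 0.369), when 13.8% of all genes passed. The 8 genes of the CCT chaperonin, another large complex of the cytosol taken for comparison, all passed as higher in lymphomas in both comparisons. Their median log2 difference was 0.45 against the mice before transformation and 0.42 against controls, when 34.4% and 40.1% of all genes passed. Before transformation 0 of the 8 passed against controls, when 10.5% of all genes did.

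Within the lymphomas the proteasome genes varied more from mouse to mouse than in controls. The highest signal was a median of 1.65 times the lowest over the 47 genes in 8 lymphomas, 1.44 times in the mice before transformation and 1.24 times in controls, and a larger group has a wider range. It exceeded 2 for 8 genes in lymphomas, 3 before transformation and 0 in controls. The same spread was not computed over all genes, so it is not shown to be particular to the proteasome genes. Lymphomas 1 and 6 had the lowest Psmb8 and Psmb9, and lymphoma 3 the highest.

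Over the 8 lymphomas Psmb8 and Psmb9 had a Pearson r of 0.957 (Spearman rho 0.905, exact permutation p = 8.93e-04 for r and 0.00456 for rho, adjusted 0.00714 and 0.0122 over 8 relations). Without lymphomas 1 and 6, farthest from the median, r was 0.908, and in the 6 lymphomas numbered 3 and up it was 0.987. Psmb9 had r = 0.916 with Tap1, 0.951 with Irf1 and 0.898 with Nlrc5 (rho 0.905, 0.833 and 0.922, exact permutation p for r 0.00218, 0.00308 and 0.00387, each adjusted 0.00774). Without the same pair of lymphomas these were 0.860, 0.905 and 0.907. Psmb10 had r = 0.789 with Psmb8 and 0.811 with Psmb9 (exact permutation, adjusted p = 0.0417 and 0.0337), and 0.944 and 0.935 without lymphomas 1 and 6. Psme1 had r = 0.529 with Psmb8 (exact permutation, adjusted p = 0.211) and Psmb5 had r = 0.152 with it (adjusted p = 0.711). Both values moved when the 2 lymphomas farthest from the median were left out: without lymphomas 1 and 6 Psme1 had r = 0.918 with Psmb8, and without lymphomas 6 and 7 Psmb5 had 0.632. The genes of a pair are read on the same array, and the pairs were chosen after their values were seen.

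**Figure D5:**
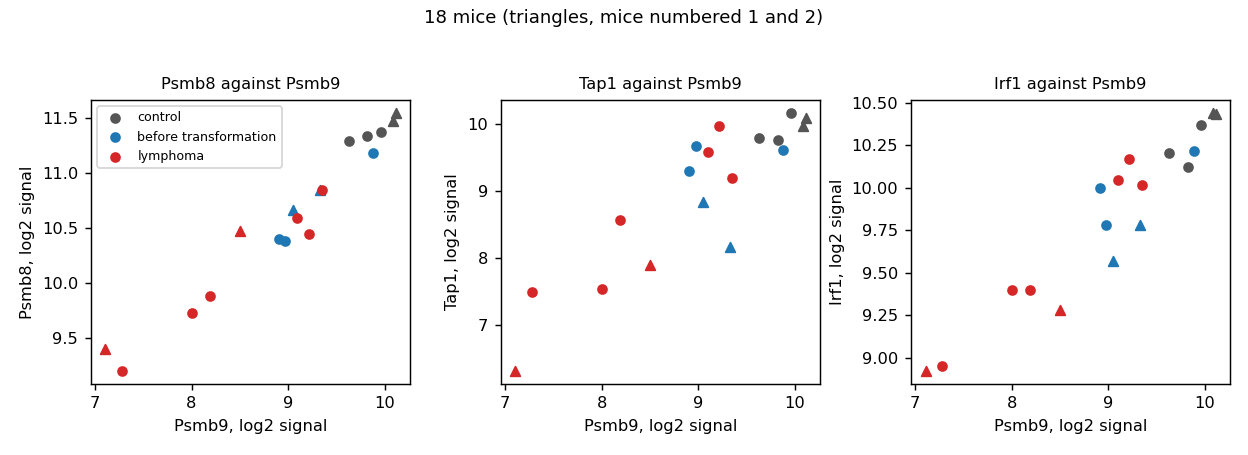
Log2 signal of Psmb8, Tap1 and Irf1 (y axes) against that of Psmb9 (x axes) in the 18 mice, coloured by group, with triangles for mice numbered 1 and 2. Lymphomas 1 and 6 lie at the lower left of each panel and the 5 controls at the upper right, with mouse 3 before transformation near the controls.

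Of 9 listed genes of interferon-linked antigen processing 8 were tested, and 4 were lower before transformation and 5 in lymphomas than in controls. These shares are 50% and 62.5%, when 10.5% and 40.1% of all genes passed. Tap2, a chain of the peptide transporter encoded beside Psmb8, gave 1196 to 1454 in controls, 657 to 849 before transformation and 174 to 610.5 in lymphomas, so the 3 groups did not overlap. Its log2 difference from controls was -0.82 (limma adjusted p = 1.56e-04) before transformation and -1.91 (adjusted p = 1.23e-04) in lymphomas. Tap1, encoded across the segment shown from Psmb9, gave 870.4 to 1154 in controls, 288 to 821 before transformation and 79.5 to 1008 in lymphomas (-0.84, adjusted p = 0.0543, and -1.64, adjusted p = 0.0153). Irf1, the interferon-responsive transcription factor, differed by -0.44 (adjusted p = 0.0366) and -0.79 (adjusted p = 0.00754), and Nlrc5, the activator of MHC class I genes, by -1.23 (adjusted p = 0.0525) and -1.36 (adjusted p = 0.013). Erap1, which trims the peptides and was named after its values were seen, went another way: -0.59 (adjusted p = 0.0157) before transformation, 0.22 (adjusted p = 0.503) in lymphomas, and 0.82 (adjusted p = 0.0223) between the lymphomas and the mice before transformation. B2m, the light chain of MHC class I, differed by -0.42 (adjusted p = 0.0446) before transformation and by -0.45 (adjusted p = 0.156) in lymphomas.

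Nfe2l1, a factor that drives the constitutive subunit genes when the proteasome is short, belongs to a list of 8 regulators of which 7 were tested. Between lymphomas and controls 4 of these were lower and 1 higher, or 71.4%, when 40.1% of all genes passed. Nfe2l1 gave 684, 725, 760.4, 868 and 455 in controls and 218 to 536 in lymphomas (-0.83, limma adjusted p = 0.00415), and was also lower than before transformation (-1.11, adjusted p = 9.64e-04). Ngly1, the glycanase that processes the Nfe2l1 protein, gave 635 to 692 in controls, 465 to 610.5 before transformation and 176 to 472 in lymphomas (-0.36, adjusted p = 0.0306, and -1.15, adjusted p = 3.81e-04, against controls). Nfyc, a subunit of the CCAAT-binding factor, differed by -0.72 (adjusted p = 2.14e-04) in lymphomas. Nfe2l2, named after its values were seen as the 1 that was higher, differed by 0.44 (adjusted p = 0.0411), and Stat3 by -0.35 (adjusted p = 0.0777).

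Of 13 tested proteasome partners whose names fall outside the rule, 6 were higher and 1 lower in lymphomas than in controls, and 1 was higher before transformation. These shares are 53.8% and 7.69%, when 40.1% and 10.5% of all genes passed. Usp14, a deubiquitinase of the cap, differed by 0.44 (limma adjusted p = 0.00236) and Txnl1, a cap-bound thioredoxin, by 0.59 (adjusted p = 0.00216). Akirin2, which brings proteasomes into the nucleus, was the lower one (-0.33, adjusted p = 0.00411), and Zfand5, a proteasome-binding activator, was higher before transformation (0.46, adjusted p = 0.00311). Of 5 tested genes of ubiquitin supply and the p97 unfoldase, Vcp, which is p97 itself, and Ufd1, its cofactor, were higher in lymphomas than in controls (0.22, adjusted p = 0.0161, and 0.38, adjusted p = 0.0252). This share, 40%, is close to the 40.1% of all genes. Nploc4, the other cofactor, differed by 0.07 (adjusted p = 0.616).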

How the data were processed

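The deposited values are linear signal intensities of Affymetrix mouse 430 arrays, computed by the authors with dChip, per the study's design text. The dChip version, model and scaling were not given in the sources used here. Values under the 20th percentile (53.5), the 1.2% blank and 606 negative ones included, were set to it, and log2 was taken. Control 1 held 605 of the negative values and 0 blank ones, and the reason is not known. Without control 1, 2 members passed before transformation against control and 16 in lymphomas against control. Genes above the 40th percentile (109) on at least 5 arrays were tested with limma 3.58.1 (R 4.3.3, lmFit and eBayes with an intensity trend) on the 2 groups compared, with Benjamini-Hochberg adjustment over 14020 genes, and pair differences and correlations with exact permutation tests (SciPy 1.17.1). The fit was tested on simulated data. Probe sets were named from the platform annotation, where 34958 of 45101 have a single symbol. The design text calls the mice independent, and the number of arrays limits the precision.

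The members and gene lists were chosen with earlier results of these data known. Named genes were, per comparison and role, the up to 3 with the smallest limma p plus called members moving against their role, and from other lists up to 3 plus 1 not called, with exceptions marked. Alternatives changed the floor, filter, scaling, probe set, samples in the fit, blocks and mice left out. Sex signals were an alternative added after seeing the data. Mice with the same number in different groups did not deviate together throughout (r from -0.142 to 0.408), so the numbers were not taken to pair them.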

Additional observations from a re-analysis of the deposited data

Results flagged for a closer look

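Of 141 sets of mice (47 genes in 3 groups), 8 held a mouse whose gap to its nearest neighbour was large for the range of its group, where chance gives about 1 in 20, or 7.05. On the log2 scale these were Psma5 in control 4 (10.288, the lowest), Psmc6 in control 4 (10.678, the lowest), in mouse 2 before transformation (11.204, the highest) and in lymphoma 6 (9.832, the lowest), Psmd11 in control 5 (11.259, the highest), Psmd7 in lymphoma 7 (9.084, the lowest), Psme1 in mouse 3 before transformation (11.157, the highest) and Psmg2 in lymphoma 1 (10.299, the highest).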

How the results depend on the processing

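The counts of members passed, 3 before transformation against control, 11 in lymphomas against before transformation and 19 in lymphomas against control, depended on the processing, and the cause was not tested. Quantile normalization gave 25 and 33 in the lymphoma comparisons, and all 3 groups in 1 fit gave 0 and 18 in the first and second. The mean of all probe sets gave 6 in the first. The 2 sets of mouse numbers as a block gave 5, 28 and 30. Mice numbered 1 and 2 alone gave 35 in the third, and mice numbered 3 and up alone gave 0 in the first and 20 in the second. Male signals alone gave 0 in the first and female signals alone, with fewer mice, 5 in the third. The mouse number as a replicate block gave 2, 22 and 23, and since the numbers were not shown to pair the mice this is given only here. Leaving out 1 mouse gave 2 to 6, 9 to 15 and 15 to 21, with 5 without mouse 2 and 6 without mouse 3 before transformation. Leaving out lymphoma 4, which gave both sex signals, gave 11 and 17.

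Log2 differences that changed sign were mostly between probe sets. With the second brightest probe set they were, against before transformation and control, -0.33 and -0.28 for Psma1, -0.34 and -0.28 for Psmd7 and -0.86 and -0.54 for Psmd9, and against control -0.16 for Psmd2, 0.047 for Psmd4 and -0.30 for Psmf1. With the mean of probe sets they were -0.26 and -0.14 for Psmd9 and -0.069 for Psmf1. The second probe sets of Psmc1 and, before transformation, Psmg4 were at the floor and gave no value. Psme1, near 0 between lymphomas and before transformation, changed to 0.085 with quantile normalization, 0.036 with median centring, 0.033 with the replicate block, 0.092 in mice numbered 1 and 2, and -0.095 to 0.033 on leaving out 1 mouse. In mice numbered 1 and 2, Psmd10 changed to 0.018 before transformation and Psmd4 to 0.009 against control.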
